A study of Mus musculus with 2 samples.

Results

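Coagulation and fibrinolysis were followed in 9 genes: F3, F5, F10, Tfpi, Thbd, Procr, Plat, Plau and Plaur. The genes were chosen by name, as the rows of the deposited value table whose platform gene symbol is one of them. All 9 were found, each with 1 probe identifier, among 19505 named genes. The samples were mouse (Mus musculus) lung cells sorted for an SPC/GFP reporter and for EpCAM. SPC is the common short form of surfactant protein C, which alveolar type 2 cells secrete, and EpCAM is an adhesion molecule on epithelium. One group had 3 months of smoke exposure and the other 3 months of air exposure, and each was measured on 1 Clariom S Mouse array. The sources used here do not give strain, age, sex, the construct that carries the reporter, or how many animals lie behind each array.

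Clotting starts when tissue factor, the product of F3, meets factor VII of plasma and the complex activates factor X, the product of F10. Activated factor X works with factor V to make thrombin, and thrombin cuts fibrinogen into fibrin. Endothelium restrains this cascade through the tissue factor pathway inhibitor (Tfpi), through thrombomodulin (Thbd), which turns thrombin into an activator of protein C, and through the endothelial protein C receptor (Procr). Fibrin is dissolved by plasmin, which the tissue-type and urokinase-type activators (Plat and Plau) release from plasminogen, and urokinase is held at the cell surface by its receptor (Plaur). Alveolar epithelium is known as a source of tissue factor in the lung, and fibrin in the air spaces is a known feature of lung injury.

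With 1 array in each group there was no replicate, no SD and no test, so each difference below compares the smoke array with the air array and not the exposures. Values are log2 signals as deposited, a difference is smoke minus air, and values of different genes are not set against each other because each probe has its own response. As a yardstick, each difference was read beside those of the 200 named genes nearest in mean level, by their median, their robust SD (a scaled median absolute deviation) and the gene's percentile among them. The same spread holds measurement error and real differences, so it does not stand in for replicates. A gene counted as above the level when its brighter array reached 4.57, the median of all probe values on both arrays. No detection calls were used, and a signal below that level is called low, not absent. The median signal was 4.53 on the smoke array and 4.61 on the air array.

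None of the 9 genes differed by as much as 2-fold. F3, F10, Tfpi, Thbd and Plaur reached the level on at least 1 array. F5, Procr, Plat and Plau were low on both arrays. That is 4 of 9, beside 9070 of 19489 genes, leaving out those at the upper limit of the scale on both arrays. Of the 5 members above the level, 0 had a smoke signal at least 2-fold higher, beside 3.94% of all 10419 genes above the level. Also 0 had one at least 2-fold lower, beside 2.48% of those genes. At 1.5-fold, F10 lay on the higher side and Thbd on the lower side, which is 1 of 5 each way, against 14.5% of all such genes with a higher and 9.19% with a lower signal. F10 passed the level through its smoke signal alone, so its place among the 5 depends on its difference. Over all 9 genes the median difference was -0.09, beside -0.02 over all genes, and differences ran from -0.62 to 0.64. Of the 9, 3 lay more than 1 robust SD from the median of genes of like level (F10, Plat and Thbd), a share of 33.3% beside 33.1% of all genes, and 0 lay more than 2 robust SD from it, beside 7.02%.

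**Figure D1:**
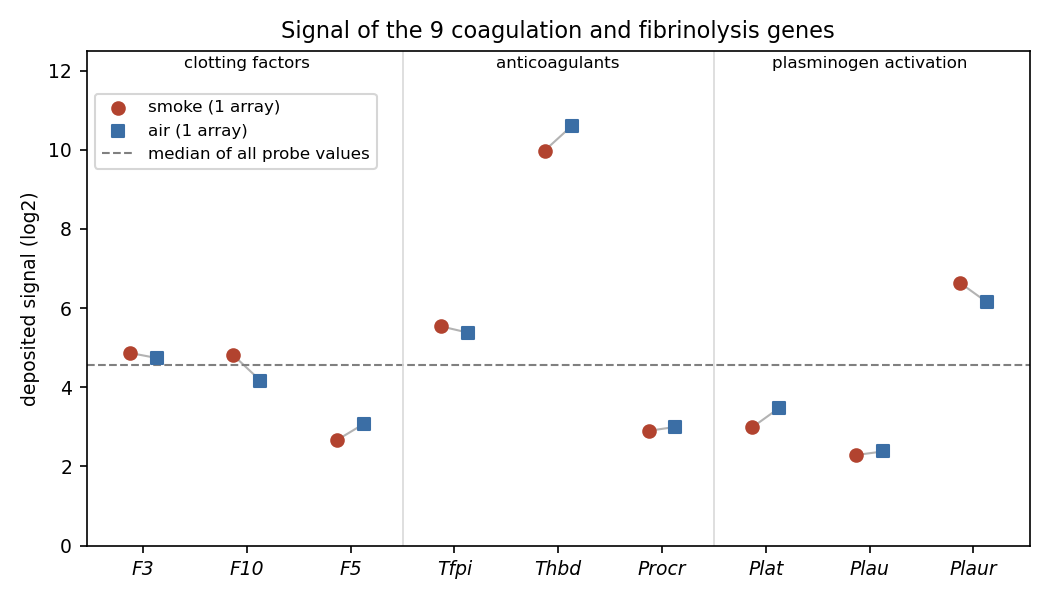
Deposited log2 signal (vertical axis) of the 9 genes, grouped by role, with the smoke array as circles and the air array as squares. The dashed line is the median of all probe values, 4.57. Thbd stood at 9.98 in smoke and 10.60 in air, and 4 genes (F5, Procr, Plat, Plau) lay under the line on both arrays.

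Upstream sequences are shown for F10 and Plaur, which had the largest differences on the higher side, and for F3 as the start of the cascade, with a difference near 0. Higher in smoke were 4 of the 9 genes, beside 9302 of the 19489 genes off the upper limit. RefSeq promoter windows (GRCm38.p6) were available for 6 of the 9 genes: F3, F5, F10, Plaur, Procr and Tfpi, the last with 2 start sites. Each sequence gives the 250 bases before 1 annotated start of transcription, on the gene's own strand, which is the plus strand for all 3 genes. The windows are chr8:13037058-13037307 for F10, chr3:121723287-121723536 for F3 and chr7:24462233-24462482 for Plaur. Capitals mark matches to the AP-1 letters TGANTCA.
F10: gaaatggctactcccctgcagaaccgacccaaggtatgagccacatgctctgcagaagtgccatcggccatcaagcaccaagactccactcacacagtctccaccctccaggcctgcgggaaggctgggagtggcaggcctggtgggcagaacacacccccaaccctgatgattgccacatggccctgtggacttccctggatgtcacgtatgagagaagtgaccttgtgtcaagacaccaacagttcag
F3: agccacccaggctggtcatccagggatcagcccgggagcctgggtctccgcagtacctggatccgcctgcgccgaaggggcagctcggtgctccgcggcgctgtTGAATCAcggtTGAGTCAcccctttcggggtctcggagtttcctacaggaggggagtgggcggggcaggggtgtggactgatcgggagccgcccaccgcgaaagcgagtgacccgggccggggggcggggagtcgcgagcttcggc
Plaur: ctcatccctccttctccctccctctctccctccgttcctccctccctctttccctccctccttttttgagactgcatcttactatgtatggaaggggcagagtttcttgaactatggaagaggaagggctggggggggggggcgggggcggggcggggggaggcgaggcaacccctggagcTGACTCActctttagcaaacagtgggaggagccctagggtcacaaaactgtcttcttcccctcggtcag

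The AP-1 letters, read by FOS and JUN factors, occurred at 2 places in the F3 window, starting 146 and 135 bases before the start, at 1 place in Plaur (69 bases before) and at 1 place in Procr (154 bases before). They did not occur in the windows of F10, F5 or Tfpi. Of 32851 windows of the same length in the table, 6.75% held them. The genes with a match had log2 differences of 0.13 (F3), 0.49 (Plaur) and -0.10 (Procr), and those without had 0.64 (F10), -0.41 (F5) and 0.16 (Tfpi). The sign of the Procr difference changed with the processing. The GC box GGGCGG, found in 32.7% of windows, occurred 3 times in F3, 3 times in Plaur (the last 2 matches sharing 1 base), once in F5 and once before each of the Tfpi starts. Both strands were searched, and no AP-1 match overlapped a GC box. The letters used for NF-kB (GGG, any 3 bases, then TTCC) were in 4.65% of all windows. Those for the D-box (TTATGNAA) were in 3.07% and those for the E-box (CACGTG) in 6.02%. None of these had an exact match in the windows of the member genes. Only exact matches were counted, and the F3 window holds cggagtttcc, which differs from the NF-kB letters in its first base only. Other near matches were not searched for. A match is a description of the sequence and not of binding.

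Among the 3 clotting factor genes of the 9, F10 had the largest difference. F10, which encodes the zymogen of the protease that makes thrombin, stood at 4.81 in smoke, against 4.17 in air, a difference of 0.64 (1.56-fold). The air signal lay under the level of 4.57 and the smoke signal just over it. Genes of like level had a median difference of -0.09 with a robust SD of 0.50, which put F10 at their 90.8th percentile, 1.45 robust SD above the median. Its size depended on how low signals were treated, since an offset of 16 on the linear scale brought the difference to 0.37. The 3 genes whose pair of signals lay nearest to that of F10 were H2bc3, a histone gene, at a distance of 0.00 on the log2 scale, Serpini1, the serpin neuroserpin, at 0.032 and Acss3, an acyl-CoA synthetase gene, at 0.04. With 2 arrays this likeness says little.

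F3, the gene of tissue factor, the initiator of clotting, stood at 4.87 in smoke, against 4.74 in air, a difference of 0.13. That is 0.36 robust SD above the median of genes of like level, whose robust SD was 0.50. The arrays thus gave close signals for the initiator, just above the level on both. F5, which encodes the cofactor of activated factor X, stood at 2.67 in smoke, against 3.08 in air. Both are low signals, and the difference of -0.41 was -0.13 with the offset.

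Among the anticoagulant members, Thbd had the largest difference, toward a lower signal in smoke. Thbd, the gene of thrombomodulin, stood at 9.98 in smoke, against 10.60 in air, a difference of -0.62 that makes the smoke signal 65.1% of the air signal on the linear scale. It lay at the 4.2nd percentile of genes of like level, 1.54 robust SD below their median of 0.09. Its signal was well above the level on both arrays, and the difference was -0.73 after quantile normalization and -0.61 with the offset. Tfpi, whose product blocks the tissue factor complex, stood at 5.54 in smoke, against 5.38 in air. The difference of 0.16 was 0.43 robust SD from the median of like genes, opposite in sign to that of Thbd. Procr, the receptor that presents protein C to thrombomodulin, was low, at 2.90 in smoke and 3.00 in air. Its difference of -0.10 had no stable sign, as it was 0.00 after quantile normalization and 0.03 after centring by level.

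In the plasminogen system, the receptor gene Plaur had a higher signal in smoke, and both activator genes were low. Plaur, which encodes the urokinase receptor, stood at 6.64 in smoke, against 6.15 in air, a difference of 0.49 (1.40-fold) at the 76.5th percentile of genes of like level. That is 0.87 robust SD above their median, and it was 0.41 with the offset, close to its deposited size. Plat, the tissue-type activator, stood at 2.99 in smoke, against 3.48 in air, a difference of -0.49 that was -0.18 with the offset. Plau, the urokinase-type activator and the ligand of Plaur, stood at 2.29 in smoke, against 2.38 in air. The ligand thus gave a low signal on both arrays, with a difference of -0.09.

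**Figure D2:**
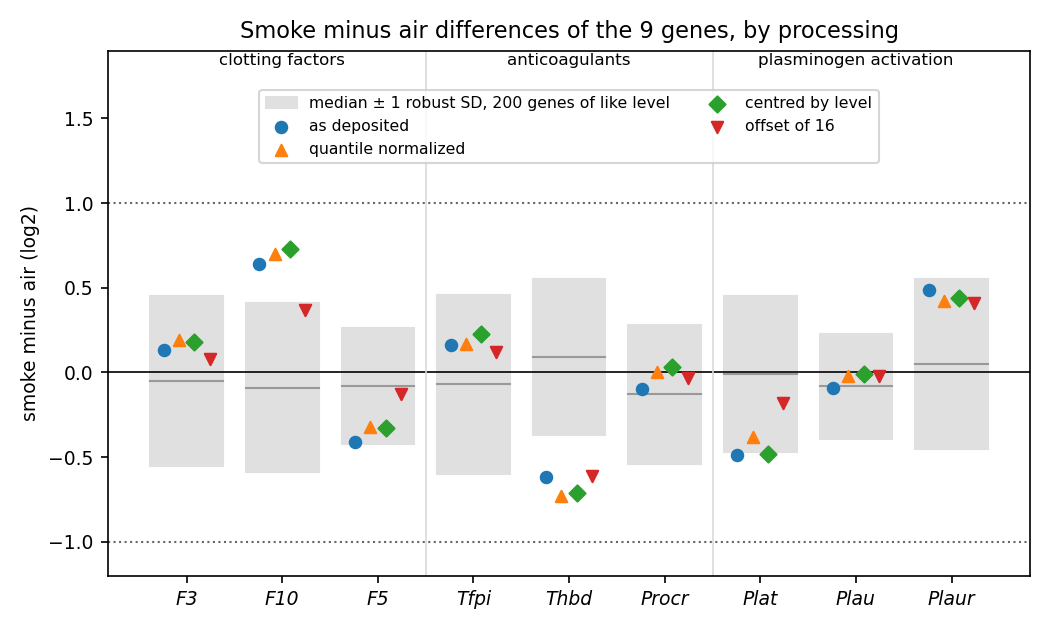
Smoke minus air difference on the log2 scale (vertical axis) for each gene as deposited (circles), after quantile normalization (triangles), after centring by level (diamonds) and with an offset of 16 (inverted triangles). Grey boxes give the median ± 1 robust SD of the 200 genes nearest in level, and dotted lines mark 2-fold. All 9 genes lie between the dotted lines under each setting, and F10, Thbd and, by a small margin, Plat lie outside their boxes as deposited.

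**Figure D3:**
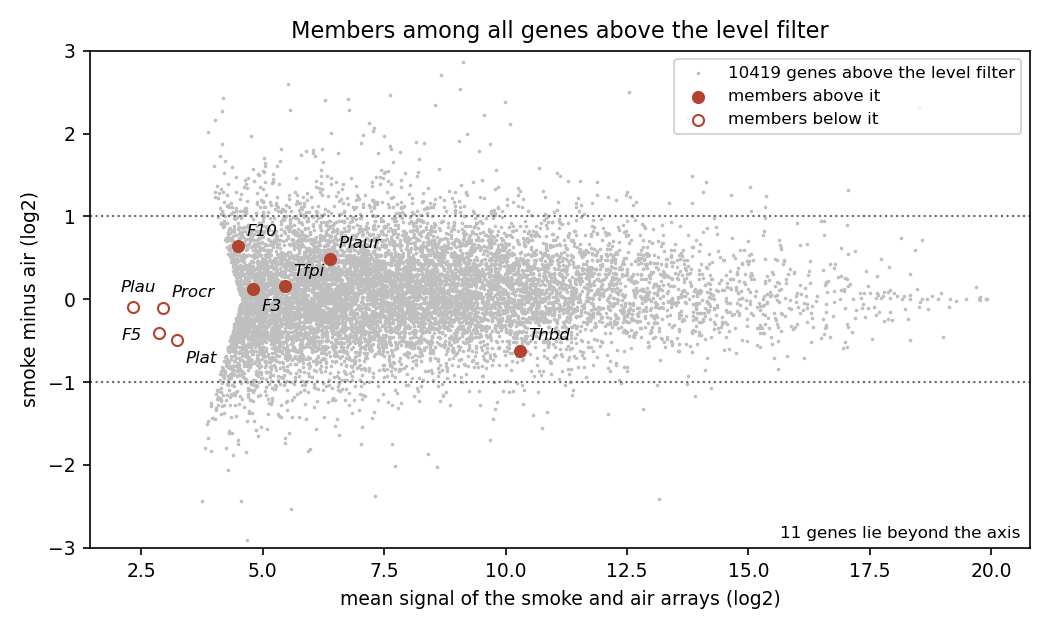
Smoke minus air difference (vertical axis, log2) against the mean signal of both arrays (horizontal axis, log2) for 10419 genes above the level (grey), with the 9 genes as filled points above the level and open points below it. Dotted lines mark 2-fold and 11 genes lie beyond the axis. The 5 members above the level lie within the cloud.

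The other genes of the pathway were taken as 40 genes in 5 lists, of which 35 were measured. The other 5 were not analysed here. Of the 35, 14 were above the level, 1 of them past 2-fold on the high side in smoke, 0 on the low side and 13 within 2-fold, beside the 3.94% and 2.48% of all genes given above. The median difference of the 35 was -0.15, and that of the 14 was -0.09, beside 0.06 over all genes above the level.

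Serpind1 was the gene past 2-fold. Serpind1, which encodes heparin cofactor II, a serpin that inhibits thrombin, stood at 9.27 in smoke, against 7.38 in air, a difference of 1.89 (3.71-fold). It exceeded all of the 200 genes of like level, whose robust SD was 0.50. The other anticoagulant genes above the level were Anxa5, annexin A5, a phospholipid-binding protein, at 13.04 in smoke and 13.02 in air, and Pros1, protein S, the cofactor of activated protein C, at 6.56 in smoke and 6.66 in air. Proc, protein C itself, and Serpinc1, antithrombin, were low on both arrays, with Proc at 3.97 in smoke and 4.19 in air and Serpinc1 at 2.49 in smoke and 2.63 in air.

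Of 13 measured coagulation factor genes, 11 were low on both arrays, beside 9070 of the 19489 genes off the upper limit. Among the 11 were all 3 fibrinogen chains and prothrombin (F2), which are known as liver products. F7, the factor that tissue factor binds, stood at 6.24 in smoke, against 5.85 in air, a difference of 0.39 at the 75.2nd percentile of genes of like level. Vwf, von Willebrand factor, a protein of endothelium and platelets, stood at 9.07 in smoke and 9.03 in air. The low F12 and F9, both contact or intrinsic pathway factors, had the largest differences of the list, -0.97 and -0.96, from smoke signals of 2.51 and 3.10. The list's median was -0.13.

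In the fibrinolysis list, the 4 genes above the level, of 9 measured, all had lower signals in smoke, each by less than 2-fold, beside 4660 of all 10419 genes above the level with a lower signal. Their differences ran from -0.59 to -0.12, and the median of the 9 was -0.22. Of the 5 low genes, Serpinb2, an inhibitor of urokinase, was the 1 with a higher signal in smoke, at 2.81, against 2.28 in air. S100a10, which with annexin A2 forms a plasminogen receptor, stood at 7.19 in smoke, against 7.78 in air, a difference of -0.59 at the 6.2nd percentile of genes of like level. Its partner Anxa2 stood at 10.15 in smoke and 10.37 in air. Plgrkt, another plasminogen receptor, differed by -0.25 and Lrp1, an endocytic receptor that clears protease and inhibitor complexes, by -0.12. S100a10 was the 1 gene of the 14 above the level that was past 1.5-fold on the lower side.

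Thrombin signals to cells through protease-activated receptors. F2r, the main thrombin receptor, stood at 8.66 in smoke, against 8.99 in air, and F2rl2, a cofactor receptor for thrombin in mouse platelets, at 4.56 in smoke, against 4.94 in air. The 3 measured receptors had differences from -0.38 to -0.26. Factors VII and X need the vitamin K cycle to become active. All 3 of its genes were above the level: Ggcx, the carboxylase, stood at 15.97 in smoke and 16.06 in air, Vkorc1, the epoxide reductase, at 12.39 in smoke and 11.94 in air, and Vkorc1l1, its homologue, differed by 0.26.

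**Figure D4:**
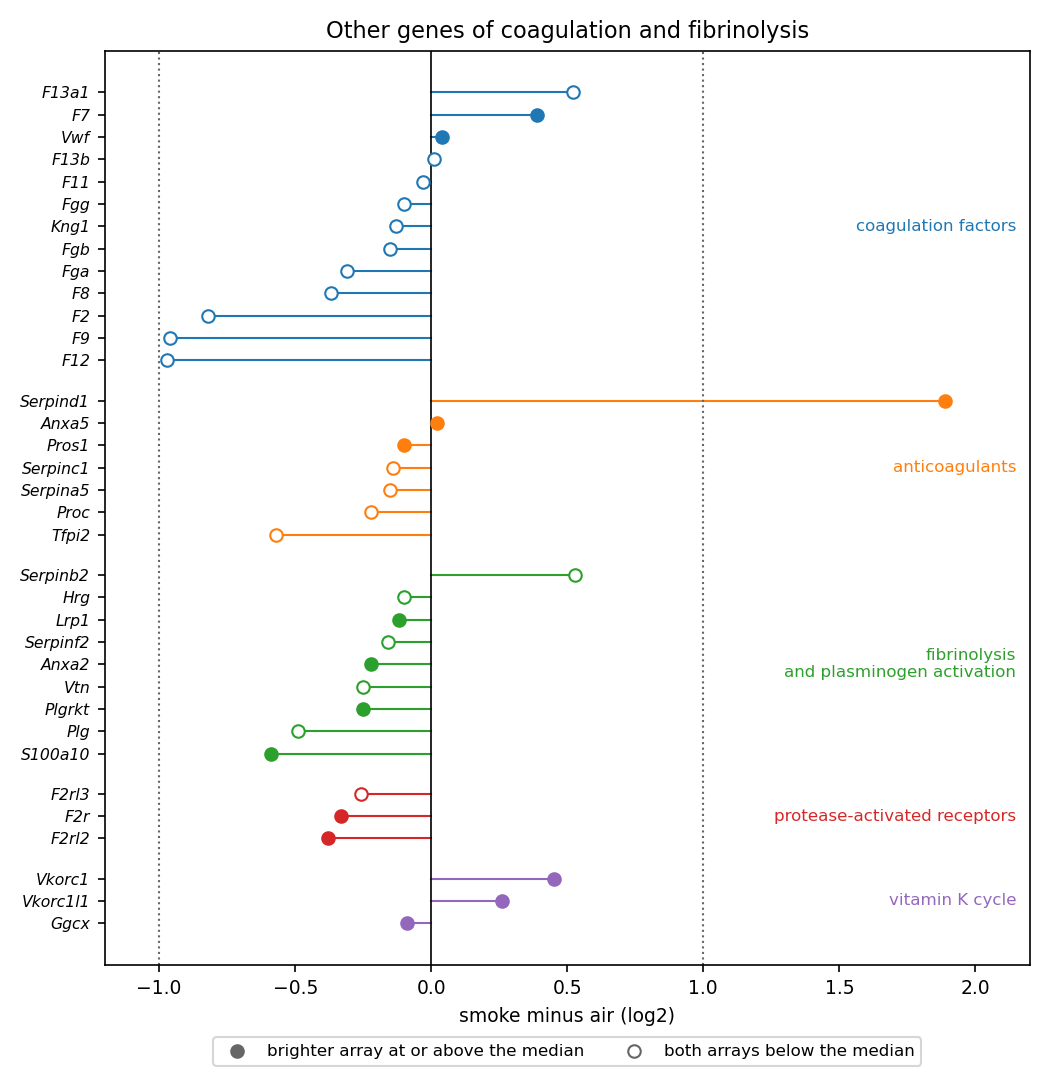
Smoke minus air difference on the log2 scale (horizontal axis) of 35 other genes of the pathway, in 5 lists. Filled points reached the level of 4.57 on at least 1 array, open points were below it on both, and dotted lines mark 2-fold. Serpind1, at 1.89, is the 1 gene beyond a dotted line.

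Several of these genes are known products of endothelium, platelets or macrophages, so markers of other cell types were read in the same arrays. Sftpc, the gene of surfactant protein C, was at the upper limit of the scale, 19.93, on both arrays, as were 6 of the other 9 alveolar type 2 markers, and Epcam stood at 10.92 in smoke and 11.09 in air. In bulk samples, fewer cells of a type and less RNA per cell cannot be told apart. All 13 measured endothelial markers were above the level on both arrays. Of these, 11 were lower in smoke, beside 4660 of all 10419 genes above the level. The log2 signals of the 13 summed to 120.06 in smoke and 126.36 in air. Such sums of log2 signals, here and for the lists below, are not total signals, since each probe has its own response. The median difference of the 13 was -0.56. Cldn5, an endothelial tight junction gene, stood at 7.54 in smoke and 8.71 in air. Pecam1, an endothelial adhesion gene, stood at 9.97 in smoke and 10.70 in air. The differences of the 13 ran from -1.17 to 0.66. All 9 members lay inside that range, so the place of Thbd (-0.62) in it does not set Thbd apart. The differences of Tfpi (0.16) and Vwf (0.04), also known endothelial genes, lay above those of the other measured markers except Esam (0.66). Vwf is itself 1 of the 13. The part of endothelial signal in the difference of Thbd was not tested.

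Macrophage and monocyte markers, read beside F10 and Plaur, had a median difference of -0.16 over 10 measured genes, with 5 above the level and log2 signals that summed to 61.34 in smoke and 63.49 in air. In this list 3 genes were higher in smoke, beside 9302 of the 19489 genes off the upper limit, and 7 were lower. Ptprc, the pan-leukocyte gene, stood at 7.59 in smoke and 7.64 in air. Chil3, a chitinase-like macrophage protein, stood at 9.87 in smoke, against 11.27 in air. Ly6c2, the 1 gene higher in smoke of the 5 above the level, stood at 9.82 in smoke and 9.45 in air. Neutrophil markers had a median of 0.75 over 8 measured genes, which was 0.52 with the offset, and summed to 47.03 in smoke and 41.86 in air. Of the 8, 7 were higher in smoke, beside 9302 of the 19489 genes off the upper limit. Il1r2, a decoy receptor of neutrophils, differed most, at 5.61 in smoke and 4.49 in air, the latter under the level. Retnlg also reached the level in smoke alone, and Mmp8 and Mmp9 were low on both arrays. Cxcr2, at 6.16 in smoke and 5.18 in air, and Csf3r, at 8.72 in smoke and 8.12 in air, were above it on both. S100a8 differed by 0.28 and S100a9, the 1 gene lower in smoke, by -0.19. Plaur is known on neutrophils and macrophages, and the part of either in its difference of 0.49 was not tested. Platelet markers had a median of -0.39 over 5 measured genes and summed to 24.86 in smoke and 25.24 in air. Pf4, platelet factor 4, was the 1 higher in smoke, at 5.18, against 4.08 in air. Its air signal lay under the level, and its difference of 1.10 was 0.67 with the offset. The fibroblast and smooth muscle list had a median of -0.18 over 8 genes, and of 0.08 over the 6 above the level, 3 of which were higher and 3 lower in smoke. Col1a1, a collagen chain, stood at 5.06 in smoke and 6.24 in air, while Col3a1, another collagen chain, stood at 5.24 in smoke and 4.61 in air. Mesothelial markers had a median of -0.09 over 4 genes, 2 higher and 2 lower, which was 0.02 after quantile normalization. Msln, mesothelin, stood at 3.57 in smoke and 4.85 in air, and Upk3b, a uroplakin, at 6.08 in smoke and 5.43 in air. Alveolar type 1 markers had a median of -0.23 over 9 genes, with Clic5, a chloride channel family gene, differing most, at 15.46 in smoke and 16.14 in air.

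**Figure D5:**
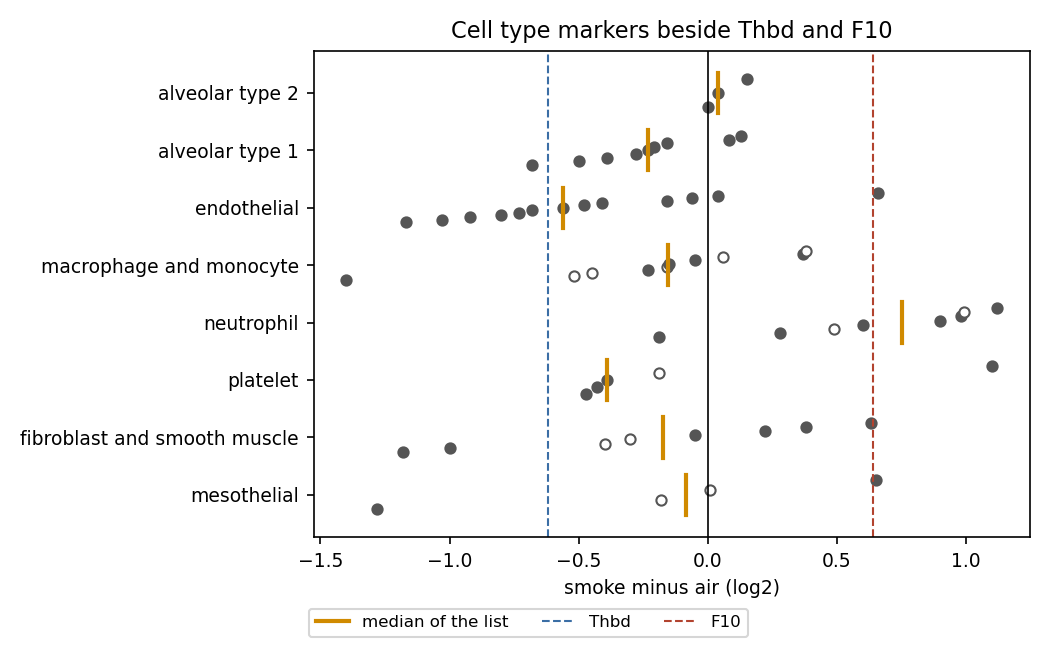
Smoke minus air difference on the log2 scale (horizontal axis) of cell type markers that were off the upper limit, 1 row of points per list, filled where the brighter array reached the median of all probe values. Bars give each list's median, and dashed lines the differences of Thbd (-0.62) and F10 (0.64). The endothelial median is -0.56 and the neutrophil median 0.75.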

How the data were processed

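Per the labels' protocols, Trizol-extracted total RNA was turned into biotinylated cDNA and read on Clariom S Mouse arrays from Affymetrix. The authors deposited processed values, 1 per probe identifier and array, which no label names as log2. They were taken as log2 signals here because their range, 1.55 to 19.93, fits that scale. The tool that made the deposited values, per the submitters' processing notes, was Transcriptome Analysis Console. The sources used here give neither its version and settings nor the normalization or genome build. Scale and centring are thus unstated, and the labels alone set the direction (smoke minus air).

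The platform annotation paired 19572 of 22206 probes with 1 gene symbol and 0 with several, and left 2634 unnamed here. All 19572 Entrez numbers matched a RefSeq table (GRCm38.p6), used for names and neighbours. Probes of a gene were averaged, which gave 19505 genes. Of 10435 above the level of 4.57, 16 at the upper limit on both arrays were left out. Differences were computed with Python 3.11.15, numpy 2.4.6 and pandas 2.3.3, and the counting was tested on simulated data. The members, lists and tests were chosen with earlier results of these data known. Named were all members, list genes past 2-fold, the brightest and the most different gene of each list, 3 genes nearest to F10 and 7 fixed genes, of which 1 is not reported here. Further genes were chosen after their values were seen. Alternatives were other filters and thresholds, quantile normalization, centring and an offset of 16. The number of arrays limits the precision.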

Additional observations from a re-analysis of the deposited data

How the results depend on the processing

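The members past 2-fold numbered 0 under all 8 alternatives other than the 1.5-fold threshold, where they numbered 2 (F10 higher, Thbd lower). Since the count was 0 with no filter, the stricter filters and the 3-fold threshold could give no other value. The other pathway genes past 2-fold numbered 1 under the same 8 and 2 at 1.5-fold (Serpind1 higher, S100a10 lower). Among 10419 genes above the level, 410 had higher and 258 lower smoke signals past 2-fold as deposited. These counts were 467 and 407 over 19489 genes with no filter, 243 and 102 with an offset of 16, 66 and 35 at 3-fold and 1514 and 958 at 1.5-fold. The 9 member differences moved by less than the spread of genes of like level under quantile normalization, both centrings and the offset, by up to 0.31 (Plat, with the offset). For F3, Tfpi, Procr, Plau and Plaur that spread was larger than the deposited difference, so losing the whole difference would also have passed. With the offset, Plat went from -0.49 to -0.18 and F5 from -0.41 to -0.13. Of the 9, 8 kept their sign under quantile normalization and under centring by level, Procr being the exception, and 9 under the other 2. Each member has 1 probe, so reading probes singly gave no other value. No paired analysis was possible because each group holds 1 array.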

Other observations

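F10 lies between F7 and Proz on mouse chromosome 8, and Proz had a larger difference than any gene of the lists. Proz, which encodes protein Z, a vitamin K-dependent plasma protein that helps the serpin Serpina10 inhibit activated factor X, stood at 9.72 in smoke, against 7.38 in air. The log2 difference of 2.34 (5.06-fold) exceeded those of all 200 genes of like level, whose robust SD was 0.46, and it was 2.23 after quantile normalization and 2.23 with the offset. Proz and Serpina10 were looked up after the member values were seen, and Proz was in none of the lists. Serpina10 stood at 5.33 in smoke, against 4.87 in air, a difference of 0.46.

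Genes next to this cluster were read the same way. On the far side of Proz, Pcid2, Cul4a, Lamp1 and the low Grtp1 differed by 0.61, 0.42, 0.42 and 0.44, and beyond F7, Mcf2l differed by -0.50, Atp11a by 0.10 and Tubgcp3 by 0.60. Each rests on 1 array per group, with no test.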
